A study of Mus musculus with 5 samples.

Results

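The genes described here are 8 transcripts used as markers of kidney tubule development, progenitor state or repair: Sox9, Sox4, Pax2, Pax8, Cd24a, Prom1, Cd44 and Vim. They were chosen as a list of symbols and looked up among the 28692 gene identifiers of the deposited droplet tables, where each of the 8 symbols occurred once. Their raw UMI counts (unique molecular identifiers, 1 per captured transcript) were summed over tubule cells of each kidney library and over each tubule segment. The segments were assigned with segment marker genes that include none of the 8.

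The kidney tubule is lined by a single layer of epithelial cells, which the embryonic transcription factors Pax2 and Pax8 help to specify. After injury, surviving tubule cells lose part of their transport programme, spread and divide, and some re-express genes of the developing nephron, of which Sox9 is the most studied in the proximal tubule. Cd24 and prominin-1 have been used to isolate scattered tubule cells with progenitor properties. Cd44 and vimentin are commonly read as signs of an injured epithelium, although leukocytes and stromal cells express both strongly.

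All animals were C57/BL6 mice aged 8 weeks, and the tissue was kidney. The 4 groups were sham surgery taken as day 0, unilateral ureteric obstruction (UUO, a blocked ureter) at day 2, UUO at day 7, and UUO that had been relieved 7 days before collection on experimental day 14, called reversed below. The labels name no transgene or added agent, each group is 1 droplet library made from 3 pooled mice, and the cells had passed a live/dead sort after digestion on ice. With 1 library per group no test between conditions was possible, the spread between mice is unknown, and every interval given covers counting error only.

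After filtering, 3746 sham, 2159 day 2, 4287 day 7 and 3140 reversed cells remained, with a median of 2659.5, 6562, 5646 and 4879 UMIs per cell. Of these, 3382, 1201, 755 and 1674 were tubule cells. The segments matched their labels on marker genes held out of the assignment: 29 of 31 such markers were highest in their own segment, and the exceptions were Kcnj1 and Foxq1, which were listed for the thick ascending limb and were higher in distal convoluted and intercalated cells. Between 44 and 140 cells per library passed the pan-epithelial markers but no segment. Their 10 leading genes by fold were Tagln, Krt15, Igfbp2, Acta2, Map1b, Nes, Vim, Adamts5, Adgra1 and Akap12, several of which go against an epithelial name and 1 of which is a gene described here, so they are named only by the rule, as cells without a segment. They are counted in the sums over all tubule cells, and calls of the 8 genes over all tubule cells that are lost without them are given with both values, while the related genes were not counted without them. Proximal tubule cells made up 89.2% of tubule cells in sham, 47.9% at day 2, 26.4% at day 7 and 66.1% after reversal, so a sum over all tubule cells shifts with the mix of segments as well as with the level in each. The median mitochondrial share of UMIs in tubule cells was 34.8%, 20.8%, 11.5% and 27.4% in the same order, and Lyz2, a leukocyte transcript, stood at 12.9, 165, 745 and 358 CPM in them (CPM is the UMIs of a gene scaled to a common total, counts-per-million). Transcripts counted as signs of cell stress held 178, 654, 953 and 841 CPM in tubule cells. In proximal tubule cells they held 37.2, 216, 694 and 275 CPM, and their relation to the levels of the 8 genes was not tested. Pairs of libraries shared 16 to 39 cell barcodes.

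On GRCm38 with GENCODE vM21 gene models all 8 are protein-coding genes. Sox9 lies at chr11:112782224-112787760 on the plus strand, Sox4 at chr13:28948919-28953713 on the minus strand, Pax2 at chr19:44756045-44837871 on the plus strand and Pax8 at chr2:24420560-24475599 on the minus strand. Cd24a lies at chr10:43578284-43584265 on the plus strand, Prom1 at chr5:43993620-44102032 on the minus strand, Cd44 at chr2:102811141-102901665 on the minus strand and Vim at chr2:13573927-13582826 on the plus strand. Prom1 overlaps an annotated antisense gene. RefSeq promoter sequence of GRCm38.p6 was matched for 6 of the 8 genes, in 9 windows, and Sox9 and Cd24a had no entry. The 250 bases before the annotated start are shown for 2 genes with contrasting levels in tubule cells, Sox4, seen in every segment, and Cd44, nearly absent in sham. Sox4 is at chr13:28953700-28953949 and Cd44 at chr2:102901666-102901915, both read on the minus strand, 5′ to 3′, with a match to the TEAD motif GGAATG in capitals and with the end of the Sox4 window inside an exon annotated for that gene:
Sox4: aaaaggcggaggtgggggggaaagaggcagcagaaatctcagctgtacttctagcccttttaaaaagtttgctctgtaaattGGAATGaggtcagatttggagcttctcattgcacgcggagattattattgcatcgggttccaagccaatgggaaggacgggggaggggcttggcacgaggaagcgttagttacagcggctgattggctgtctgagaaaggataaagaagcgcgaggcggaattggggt
Cd44: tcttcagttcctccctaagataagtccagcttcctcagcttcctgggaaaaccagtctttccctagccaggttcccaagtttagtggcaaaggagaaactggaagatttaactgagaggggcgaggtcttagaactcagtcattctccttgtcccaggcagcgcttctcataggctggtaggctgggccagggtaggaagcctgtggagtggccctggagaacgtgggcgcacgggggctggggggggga

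Motifs of 5 factor families linked to injury or to promoter architecture were searched on both strands of the 9 windows and of all 32851 promoter windows of that length. GGAATG was found in 1 member window, that of Sox4, 168 bases before the start, against 12.6% of all windows. The AP-1 motif TGANTCA was in 2 windows, both of Prom1, 88 and 189 bases before their starts, against 6.75% of all windows. The NF-kB motif (1.41% of all windows; the match reads GGAAAGCCCC on the gene's strand) and the TATA box TATAAA (12.4%) each matched Vim, the first on the opposite strand 223 bases and the second 32 bases before the start. The RBPJ motif GTGGGAA (5.42% of all windows) matched none of the 9. These are matches of letters and say nothing about binding.

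Summed over all tubule cells, 7 of the 8 genes were past 2-fold higher at day 2 than in sham. Prom1, which encodes the membrane glycoprotein prominin-1, was the exception. Past 2-fold means a ratio of CPM (with 1 CPM added) of at least 2 in either direction with a 95% counting interval that excludes no difference, for genes with at least 30 UMIs in both libraries together. By the same rule 25.1% of 11911 genes were past 2-fold at day 2, 21.0% of the genes higher and 4.11% lower. The median log2 ratio was 2.78 for the 8 genes and 0.51 for all genes tested. The count was 5 without Pax2 and Pax8 when cells over 20% mitochondrial UMIs were left out, when mitochondrial UMIs were left out of the denominator, or under either library scaling tried. It was 4 when segments were weighted equally, where Sox4 was lost as well, whether or not the cells without a segment entered as a class of their own. Leaving those cells out of the sum kept the count at 7. With 10 CPM added in place of 1, Pax2 and Cd44 were lost. With the part of each level estimated from leukocyte RNA subtracted, as described with Cd44 below, the count was 6 and Vim was lost. The estimate was 139% of the observed day 2 Vim, so nothing of that level remained. The log2 ratio of Vim went from 2.81 to −0.53 because of that cut, and −0.53 is not a measured decrease.

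From day 2 to day 7, Sox4, Cd44 and Vim were past 2-fold higher, 3 of 8, and none was lower, against 7.58% of 12237 genes, 6.20% higher. That count was 0 under TMM or DESeq2 scaling, which move the median gene by −0.25 and −0.29 on the log2 scale in this comparison. Without the cells of no segment Cd44 was lost, at a log2 ratio of 0.72 in place of 1.09. With the leukocyte estimate subtracted the log2 ratio of Vim was 0, because the estimate exceeded the observed Vim in both libraries and both levels were cut to 0. After reversal, 4 genes were past 2-fold lower than at day 7 (Sox9, Sox4, Cd24a and Cd44) and Vim was past 2-fold higher, against 8.97% of 12586 genes, 4.80% lower and 4.17% higher. The 4 lower calls were lost when segments were weighted equally or when cells over 20% mitochondrial UMIs were left out. Sox4 was also lost under TMM, DESeq2 size factors or non-mitochondrial CPM, and Sox9 and Cd44 with 10 CPM added. The log2 ratio of Vim, 1.13, rested on the cells without a segment: it was −0.31 without them, 0.13 over named segments weighted equally, 0.08 under a stricter assignment of segments and 0.30 with each cell counted equally. With no mitochondrial limit it was 0.88 and with 10 CPM added 0.98, both short of 2-fold. Against sham, 7 of 8 remained higher after reversal, again without Prom1, against 22.0% of 12305 genes, 21.6% higher. That count was 5 without Pax2 and Pax8 under TMM, DESeq2 size factors or equal segments, and 4 with 10 CPM added, where Cd44 was lost as well. Under the 20% mitochondrial limit Pax2 and Pax8 were lost and Prom1 passed. Pax8 alone was lost under the stricter assignment, non-mitochondrial CPM, equal named segments or without cells that carried both Wt1 and Ncam1. Day 2 and reversed share the sham library as their reference, so these counts are not independent of each other.

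Within most single segments fewer of the genes passed. Across all classes and comparisons 82 ratios passed, of which 28 did so under every alternative that gave a value and 54 were lost in at least 1. At day 2 against sham, 5 of the 7 with enough UMIs passed higher in the proximal tubule (9.32% of all genes tested there), 5 of 8 in the thick ascending limb (8.18%), 3 of 5 in connecting tubule and principal cells (11.2%) and 1 of 4 in intercalated cells (7.60%). With the leukocyte estimate subtracted Vim was lost in the first and second, where the estimate was 166% and 141% of the observed day 2 Vim. Its day 2 level was therefore cut to 0 in both, and the resulting values of −0.79 and 0 are not measured ratios. Proximal Pax8 was lost in 5 other settings, and Sox4 of the thick ascending limb (1.17) under non-mitochondrial CPM (0.90). From day 2 to day 7 the counts higher were 2 of 8 in the proximal tubule (7.19%; Sox4 and Cd44), 1 of 8 in the thick ascending limb (7.41%), 2 of 6 in connecting tubule and principal cells (5.43%; Sox4 and Vim) and 1 of 5 in intercalated cells (4.03%; Vim). Under the stricter assignment proximal Sox4 turned to −1.30, and connecting tubule and principal cell Sox4 (0.90) was lost. Proximal Cd44 then had too few UMIs to be called, at 11.1 CPM (8 UMIs) at day 7 and 4.56 CPM (12 UMIs) at day 2. With the leukocyte estimate subtracted proximal Cd44 had too few UMIs to be called. The log2 ratio of Vim became 0 both in intercalated cells and in connecting tubule and principal cells, since the estimate exceeded the observed and both levels were cut to 0. After reversal against day 7, 4 of 8 were past 2-fold lower in the proximal tubule (7.35%; Sox9, Sox4, Pax8 and Cd44) and 0 of 8 in either direction in the thick ascending limb (5.08%). In connecting tubule and principal cells 1 of 7 was past 2-fold higher (1.58%), Sox9, and in intercalated cells 1 of 6 (1.97%), Prom1. Under the stricter assignment proximal Sox4 turned from −1.20 to 1.06 and proximal Pax8 was lost. With the leukocyte estimate subtracted proximal Cd44 had too few UMIs to be called, at a log2 ratio of −2.62 in place of −1.72. Intercalated Prom1 (1.34, on 22 and 9 UMIs) was lost under 5 settings, the stricter assignment among them. Reversed against sham, the counts higher were 4 of 7 in the proximal tubule (9.02%) and 6 of 6 in the thick ascending limb (14.0%). They were 4 of 6 in connecting tubule and principal cells (7.71%) and 2 of 4 in intercalated cells (7.74%). Proximal Cd44 was lost under 5 settings, at −0.18 with the leukocyte estimate subtracted. Proximal Cd24a was lost under the 20% mitochondrial limit (0.64) or with 10 CPM added (0.83). Proximal Vim was lost under that limit (0.90). In the thick ascending limb Cd24a and Prom1 were lost under TMM or DESeq2 size factors. Vim there had too few UMIs to be called under the stricter assignment or with the leukocyte estimate subtracted, at 2.37 to 4.23. It entered the count on 30 UMIs after reversal and 0 in sham, while Sox9 (24 and 1) and Cd44 (16 and 0) fell short of 30. Sox9 in connecting tubule and principal cells was lost under the stricter assignment or with no mitochondrial limit, at 5.26 to 5.58. In cells without a segment 2 of 7 were higher at day 2 (4.69%), Sox9 and Vim, and 2 were lower (12.9%), Pax2 and Pax8. Sox9 was lost under 3 settings and Vim under 4, each time without the cells that carried both Wt1 and Ncam1 among them. Their log2 ratios in those settings, 1.79 to 5.27 and 4.13 to 6.09, stayed past 2-fold. Pax8 was lost under 6 settings, TMM and DESeq2 size factors among them, at −0.94 to −0.82. Their later counts were 1 of 8 higher at day 7 than at day 2 (6.86%), Cd44, and 2 of 8 higher after reversal than at day 7 (5.15%), Pax8 and Vim. Reversed against sham, 5 of 8 were higher (8.67%) and Pax2 was lower (8.23%). Without the cells that carried both Wt1 and Ncam1, both calls against day 7 were lost (Vim from 3.51 to 0.17 and Pax8 from 1.06 to 0.81), as were Sox9, Sox4 and Cd44 of the 5 against sham. Of these, Sox9 went from 2.08 to 1.74 and Cd44 stayed at 2.38 or more, both past 2-fold in ratio. Sox4 fell short of 2-fold, at 0.94 to 0.98 over the 3 settings that lost it.

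**Figure D1:**
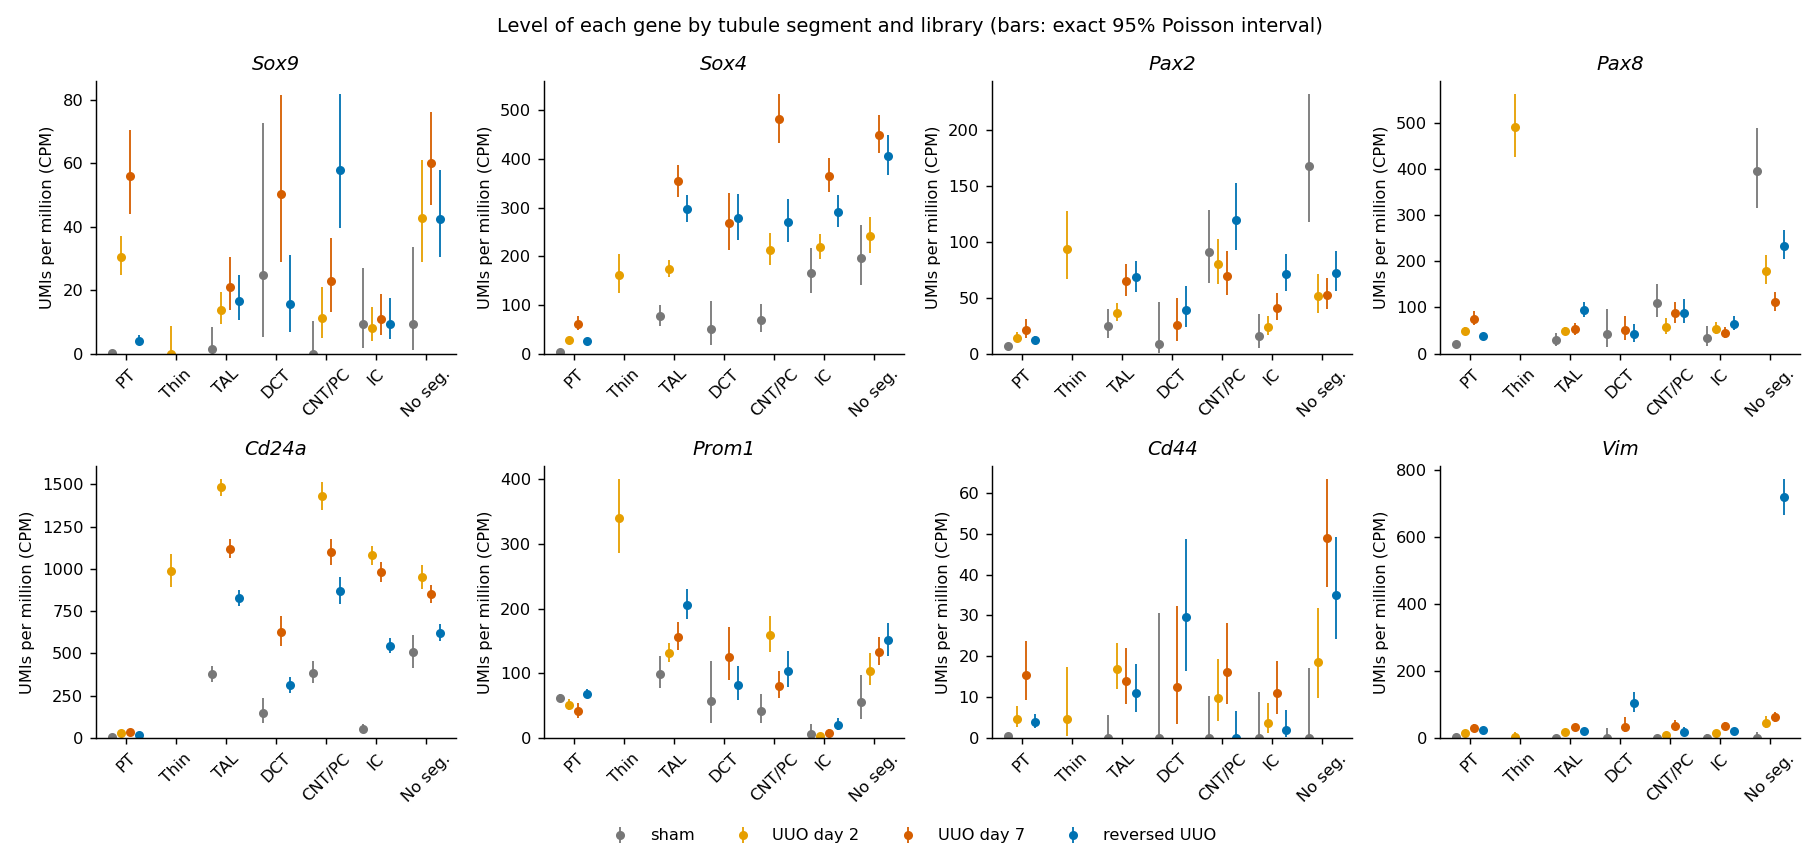
Level of each of the 8 genes in CPM (vertical axis, a separate linear scale per panel) by tubule segment and library, with exact 95% Poisson intervals as bars; PT is proximal tubule, Thin thin limb, TAL thick ascending limb, DCT distal convoluted tubule, CNT/PC connecting tubule and principal cell, IC intercalated cell and No seg. cells without a segment, and classes under 30 cells in a library are not drawn. Cd24a stays between 6.89 and 36.8 CPM in proximal tubule cells and reaches 1482 CPM in the thick ascending limb at day 2.

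**Figure D2:**
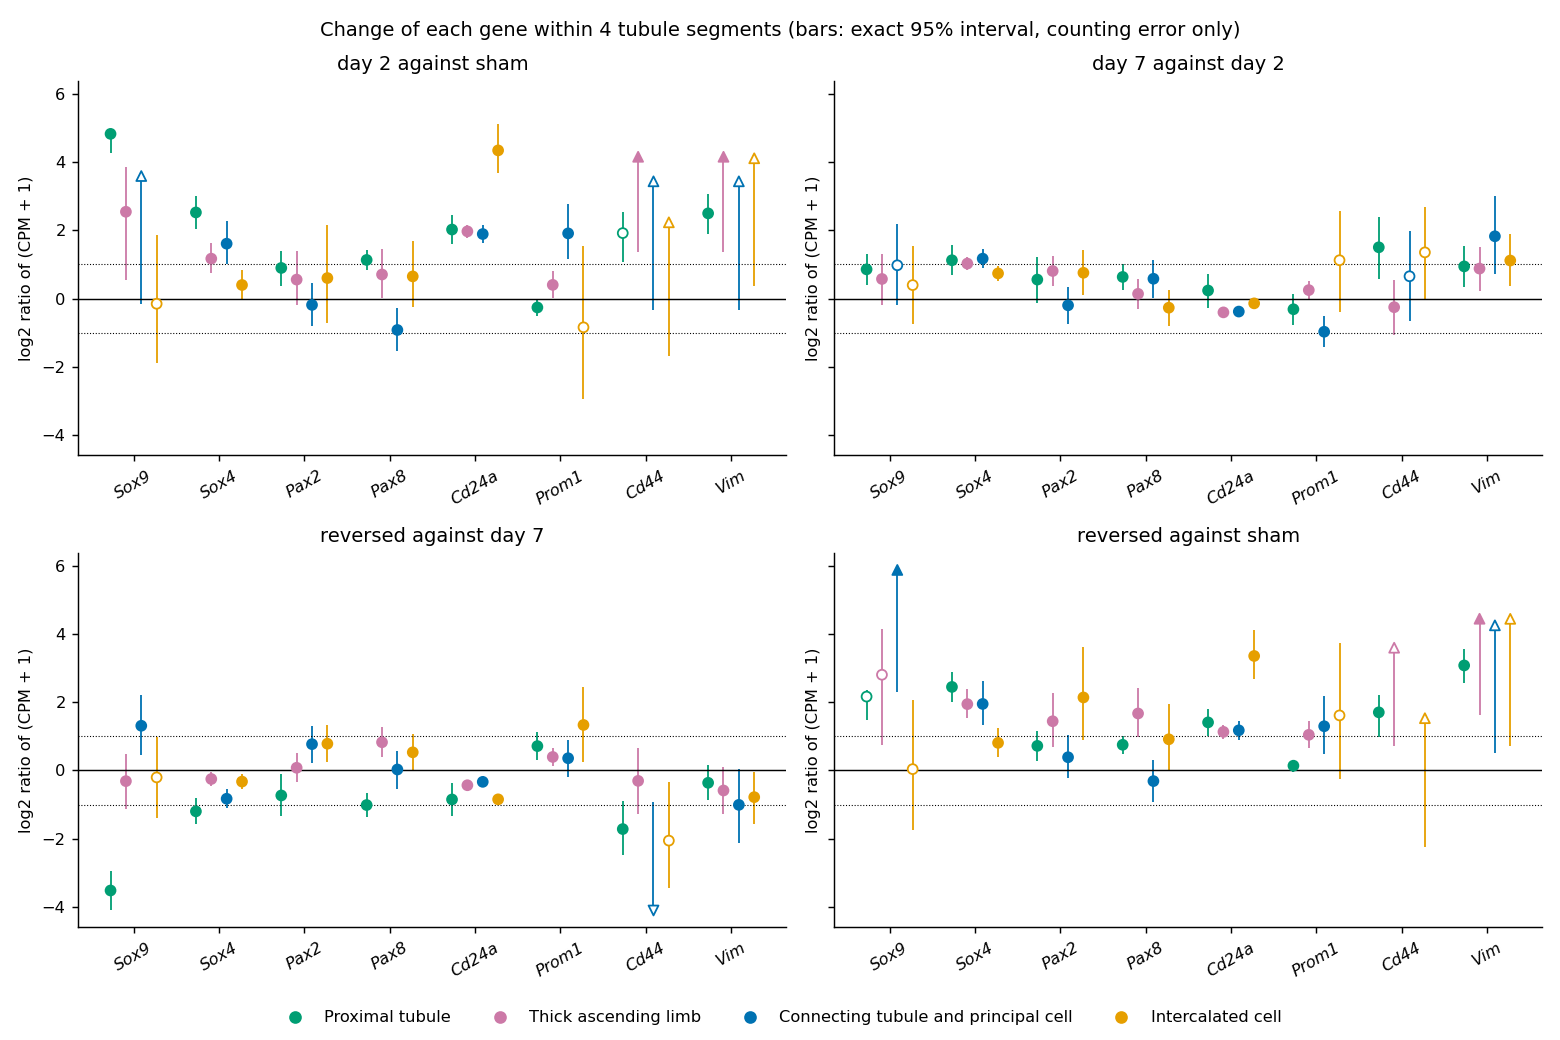
Ratio of each gene between libraries within 4 segments, as log2 of CPM with 1 CPM added, with exact 95% intervals for counting error as bars and dotted lines at 2-fold; hollow symbols have under 30 UMIs in both libraries together, and triangles mark a library at 0 UMIs, where the bar has no outer end. In the reversed against day 7 panel, Sox9 stands at −3.52 in the proximal tubule and at 1.31 in connecting tubule and principal cells.

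Sox9, a transcription factor of the developing nephron that marks dividing and repairing proximal tubule cells after injury, went from near absence to a low level in the injured proximal tubule. In sham it was seen as 1 UMI in 3017 proximal tubule cells, or 0.104 CPM. It stood at 30.5 CPM at day 2 (96 UMIs in 50 of 575 cells), 56.0 CPM at day 7 (73 UMIs in 28 of 199 cells) and 3.96 CPM after reversal (25 UMIs in 15 of 1107 cells). Under this assignment the counting intervals of the 4 values did not overlap. Under a stricter assignment of segments, added for levels after seeing the data, the day 2 and day 7 values were 25.1 CPM (19.4 to 31.9) and 26.4 CPM (15.9 to 41.2) and did overlap, while sham stood at 0.108 and reversed at 1.83 CPM. The ratio of day 2 to sham was 292 (95% counting interval 51.2 to 11653), and rests on the single sham UMI. The log2 ratio of reversed to day 7 was −3.52 (−4.10 to −2.94), and reversed stood above sham by a ratio of 38.0 (6.22 to 1559), which rests on the same sham UMI and, with 25 and 1 UMIs, is under the 30 needed for a call. Within the proximal tubule the S1-like cells, named for Slc5a2 and Slc5a12, held 71 of the 96 UMIs at day 2, 56 of 73 at day 7 and 15 of 25 after reversal, at levels of 31.0, 77.5 and 2.94 CPM. The less numerous S3-like cells had 18.7 CPM at day 7 (7 UMIs, 7.52 to 38.5), below the S1-like level (58.6 to 101), and 11.2 CPM after reversal (8 UMIs, 4.83 to 22.0), where the interval overlapped the S1-like one (1.65 to 4.85).

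Outside the proximal tubule the course of Sox9 varied by segment, and the difference between segments was not tested. In the thick ascending limb Sox9 stood at 1.53, 13.8, 21.0 and 16.7 CPM in sham, day 2, day 7 and reversed, so it was past 2-fold higher at day 2 (log2 2.55, 0.53 to 3.87, on 1 sham UMI, and with too few UMIs to be called under the stricter assignment), while the reversed and day 7 intervals overlapped. In connecting tubule and principal cells it was at 0 UMIs in sham, then 11.1 and 22.8 CPM, and it was highest after reversal at 58.0 CPM, carried by 11 of 64 cells. That last value exceeded day 7 by 1.31 on the log2 scale (0.45 to 2.21) and was at least 7.00-fold above sham, taking 3 counts for the sham library as the floor, or 3.84-fold under the stricter assignment; the lower end of the counting interval of this ratio was 5.37. Under the stricter assignment the call against day 7 was lost: Sox9 stood at 37.4 CPM (16 UMIs, 21.4 to 60.8) after reversal and 19.8 CPM (10 UMIs, 9.49 to 36.4) at day 7, a log2 ratio of 0.89 with overlapping intervals. The call against sham was lost there as well, with the 16 UMIs under the 30 needed. Intercalated cells stayed between 8.17 and 11.1 CPM in every library. Distal convoluted cells held 24.8 CPM in sham (3 UMIs in 31 cells, 5.12 to 72.6), 50.3 CPM at day 7 (42 cells) and 15.7 CPM after reversal (68 cells), with the sham interval overlapping both. Reversed stood below day 7 there as in the proximal tubule (log2 −1.62, −2.95 to −0.36), on 8 and 16 UMIs, under the 30 needed for a call. None of the 45 thin limb cells of day 2 had a Sox9 UMI, which allows a share of cells with a UMI of up to 6.67%, taking 3 cells as the limit that a count of 0 allows, and sets no limit on cells that express the gene below detection. Cells without a segment ran at 9.31, 42.8, 60.2 and 42.5 CPM. Mononuclear phagocytes of the same libraries held 0 to 2.32 CPM, a background that the day 2 and day 7 proximal values exceed. Stromal and mural cells held 3.96 to 15.35 CPM, and the reversed proximal value lies at the low end of that range.

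Proximal Sox9 was concentrated in cells that also carried the injury transcripts Havcr1 or Krt20, which encode kidney injury molecule-1 and a keratin. Proximal cells with either UMI held 60.6 CPM of Sox9 at day 2 (130 cells), 102 CPM at day 7 (62 cells) and 65.8 CPM after reversal (22 cells). Those without held 18.3, 16.9 and 1.96 CPM. The direction was the same at each time, and the same division under a stricter assignment of segments, chosen after seeing the data, gave 46.7 against 16.4 CPM at day 2 and 59.6 against 13.5 CPM at day 7, with the reversed value resting on 1 UMI. Read the other way, the 50 Sox9-positive proximal cells of day 2 held 297 CPM of Havcr1 against 95.6 CPM in the 525 others. They also held 1137 against 1695 CPM of Slc34a1, the sodium-phosphate cotransporter of the mature proximal tubule. Sox9-positive cells were deeper (a median of 8085 against 4249 UMIs); the part of depth in these differences was not tested.

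**Figure D3:**
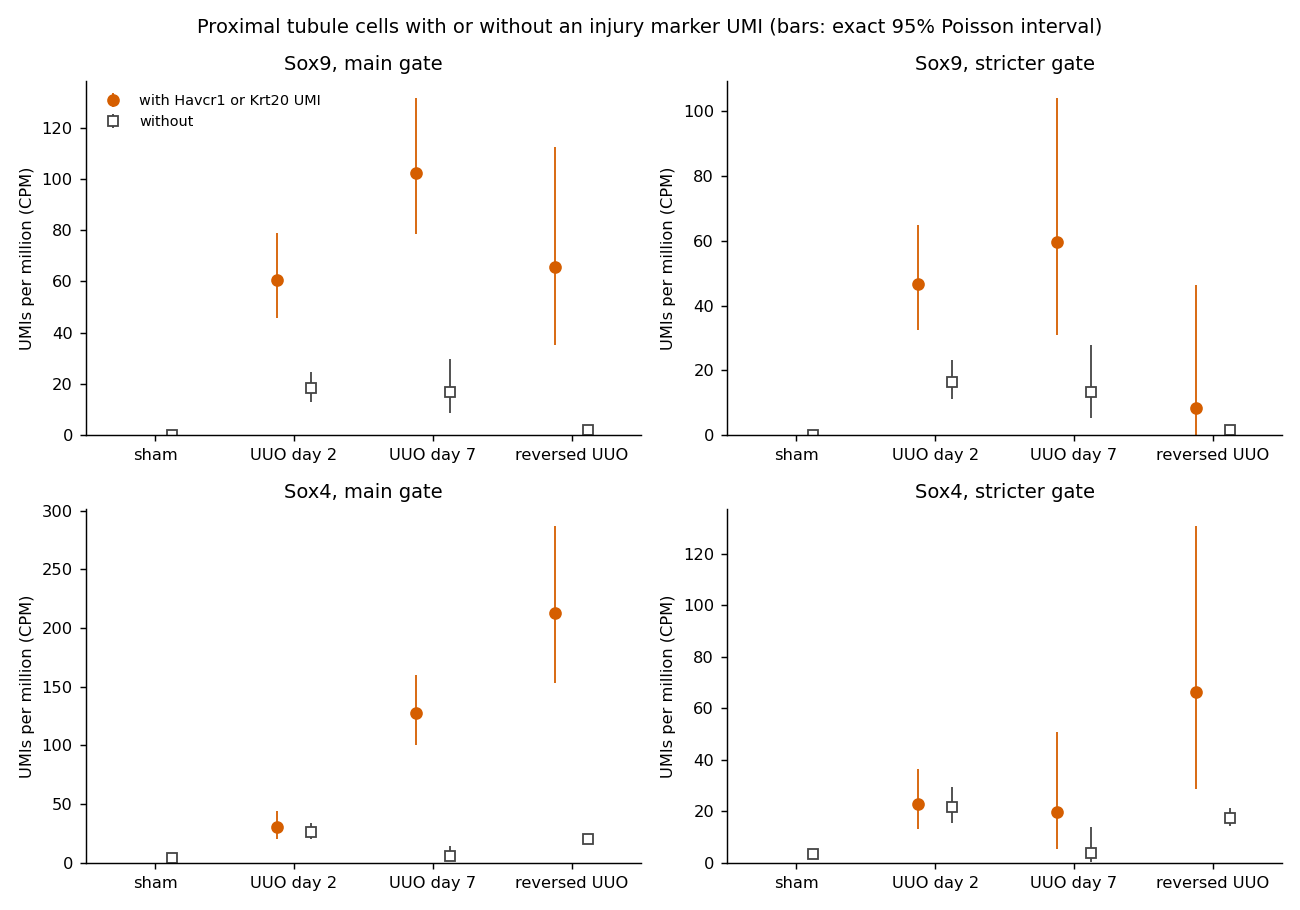
Sox9 (upper panels) and Sox4 (lower panels) in CPM in proximal tubule cells with (filled circles) and without (open squares) a Havcr1 or Krt20 UMI, by library, with exact 95% Poisson intervals; left panels use the assignment of segments used throughout and right panels a stricter one, and sham is drawn only for cells without such a UMI because 4 sham cells had one. Sox9 at day 7 stands at 102 CPM with and 16.9 CPM without in the left panel.

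Sox4, a transcription factor of the same family with roles in kidney development, was lowest in the proximal tubule in every library. Proximal tubule cells held 3.96 CPM in sham, 27.6 at day 2, 61.4 at day 7 and 26.1 after reversal. The thick ascending limb held 76.4, 173, 354 and 297 CPM. Connecting tubule and principal cells held 69.1, 213, 481 and 270 CPM, and intercalated cells 165, 218, 365 and 291 CPM. Each of these segments was highest at day 7 and above sham after reversal. Distal convoluted cells held 49.7 CPM in sham, 267 CPM at day 7 and 278 CPM after reversal. The interval of their log2 ratio of reversed to day 7 (−0.34 to 0.46) includes 0. Over all tubule cells the level was 19.9, 139.6, 322 and 147 CPM, and the share of cells with a UMI was 4.05%, 37.6%, 57.5% and 26.4%, or 1.30%, 8.41%, 18.7% and 8.42% when each cell was thinned to 1000 UMIs. From day 2 to day 7 the log2 ratio was 1.03 (0.83 to 1.22) in the thick ascending limb and 1.17 (0.91 to 1.44) in connecting tubule and principal cells. The first was lost under TMM, DESeq2 size factors and 4 other settings, at 0.72 to 0.99, and the second under the stricter assignment, at 0.90. After reversal it stood lower than day 7 by −0.25 (−0.44 to −0.06) and −0.83 (−1.11 to −0.55) in these segments, short of 2-fold. Sox4 was not a tubule-restricted transcript: endothelium held 116 to 369 CPM and phagocytes 0 to 29.8 CPM. Stromal and mural cells held 282 to 468 CPM in the 2 libraries with at least 30 of them.

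The proximal level of Sox4 at day 7 rested on which cells were counted as proximal. Proximal cells with a Havcr1 or Krt20 UMI held 128 CPM and those without held 5.65 CPM, from 4 UMIs. Under the stricter assignment the day 7 proximal group shrank from 199 to 117 cells and its Sox4 UMIs from 80 to 6, leaving 8.33 CPM. The log2 ratio of day 7 to day 2 then turned from 1.12 to −1.30 and that of reversed to day 7 from −1.20 to 1.06. Both assignments kept proximal Sox4 at day 2 and after reversal above sham, at 22.0 and 18.5 CPM against 3.44 under the stricter one.

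Pax2 and Pax8, paired-box factors that specify the nephric lineage and persist in parts of the adult tubule, had UMIs in every segment of every library with at least 30 cells, sham included, although Pax2 in sham distal convoluted cells was 1 UMI (8.28 CPM), under the floor of 3 counts (24.8 CPM). Pax2 held 7.20, 14.3, 21.5 and 12.5 CPM in the proximal tubule, where it was lowest, and 91.2, 80.0, 69.7 and 119.7 CPM in connecting tubule and principal cells, where the counting intervals of sham overlapped those of the other 3 libraries. In the thick ascending limb it held 24.4, 36.4, 64.5 and 68.2 CPM and in intercalated cells 15.3, 23.8, 40.8 and 71.1 CPM. In both segments the reversed library held the highest value, past 2-fold above sham with log2 ratios of 1.44 (0.70 to 2.27) and 2.14 (0.91 to 3.64). Day 2 against sham did not pass in any of the 4 segments compared. The sum over all tubule cells, at 14.6, 34.2, 47.9 and 38.3 CPM, did pass, with a log2 ratio of 1.17. With segments weighted equally it was −0.56 for Pax2 when the cells without a segment were weighted in as a class, and 0.16 over the named segments alone, an alternative added after seeing the data, so it passed in neither. The share of proximal cells, which hold the least Pax2, differed between the libraries as given above, and its part in the all-tubule ratio was not tested.

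Pax8 held 21.6, 48.6, 75.9 and 37.1 CPM in the proximal tubule and was past 2-fold higher there at day 2 (log2 1.13, 0.83 to 1.43) and past 2-fold lower after reversal than at day 7 (−1.01, −1.35 to −0.67). Both Pax8 calls stood close to 2-fold and were lost under TMM (0.77 and −0.72), DESeq2 size factors (0.78 and −0.74), non-mitochondrial CPM (0.94 and −0.83), 10 CPM added (0.89 and −0.87) and the 20% mitochondrial limit (0.09 and −0.38). Under the stricter assignment the first held at 1.12 and the second was lost, at 33.6 CPM after reversal against 54.2 CPM at day 7. The thick ascending limb held 29.0, 48.0, 52.9 and 94.7 CPM, with its highest value after reversal, past 2-fold above sham (1.67, 0.99 to 2.42). Connecting tubule and principal cells held 111, 57.9, 87.1 and 88.8 CPM, a log2 ratio of −0.92 (−1.55 to −0.28) at day 2 that was short of 2-fold. Intercalated cells held 33.7, 53.5, 44.2 and 64.4 CPM. The highest segment value was 491 CPM in the 45 thin limb cells of day 2. Over all tubule cells Pax8 held 33.6, 82.1, 77.5 and 70.6 CPM, and its log2 ratio of 1.26 at day 2 became −0.60 with segments and the cells without a segment weighted equally, and 0.09 over the named segments alone. In cells without a segment both factors were highest in sham, Pax2 at 168 and Pax8 at 396 CPM, against 51.4 and 179.8 CPM at day 2. Phagocytes held at most 2.67 CPM of Pax2 and 6.90 CPM of Pax8, below all these values, while stromal cells of the reversed library held 52.2 CPM of Pax8.

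Cd24a encodes a small lipid-anchored, heavily glycosylated surface protein used to isolate renal progenitor cells, and it reached the highest levels of the 8. Intercalated cells went from 52.1 CPM in sham to 1079.9 at day 2, 979 at day 7 and 544 after reversal. The ratio of day 2 to sham was 20.7 (12.9 to 35.7). The thick ascending limb held 377, 1482, 1119 and 828 CPM, and connecting tubule and principal cells 384, 1429.7, 1097 and 870.3 CPM. In the thick ascending limb the ratio of reversed to sham, 1.13 on the log2 scale, was short of 2-fold under TMM (0.84) and DESeq2 size factors (0.82). In all 3 of these segments the order was the same: highest at day 2, lower at day 7, lower again after reversal and above sham throughout. Neighbouring intervals in that order did not overlap, except those of day 2 and day 7 in intercalated cells. Over all tubule cells the share with a UMI was 8.28%, 55.3%, 71.7% and 33.7%, or 3.49%, 31.8%, 37.0% and 13.2% at 1000 UMIs per cell.

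Proximal tubule cells did not share this level. They held 6.89, 31.1, 36.8 and 19.97 CPM of Cd24a, and though day 2 was past 2-fold above sham (log2 2.03, 1.60 to 2.45), all 4 values lay below the 78.9 to 114 CPM of mononuclear phagocytes. Endothelium held 349 to 842 CPM, highest in sham. The leukocyte estimate described with Cd44 below was 2.78%, 9.35%, 28.0% and 14.8% of the proximal values in library order, and the part of free RNA from other cells was not tested. Proximal cells with Havcr1 or Krt20 held 28.7 CPM at day 2 and 31.9 CPM at day 7, against 32.1 and 40.9 CPM without, so Cd24a did not separate them as Sox9 did.

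Prom1 encodes prominin-1, a membrane protein of microvilli and cilia known in humans as CD133. With the settings used throughout, it differed least of the 8 between sham and the other libraries over all tubule cells. Under the 20% mitochondrial limit it passed 2-fold in reversed against sham, where Pax2 and Pax8 did not. Over all tubule cells it held 62.0, 94.2, 89.0 and 92.3 CPM, with a log2 ratio of 0.59 (0.45 to 0.74) at day 2. Proximal tubule cells held 62.2, 51.7, 41.4 and 68.6 CPM, and the S1-like cells of sham held 73.8 CPM against 11.2 CPM in S3-like ones. The thick ascending limb held 99.3, 131, 156 and 206 CPM, with reversed past 2-fold above sham (log2 1.05, 0.66 to 1.45), a call lost under TMM (0.76), DESeq2 size factors (0.73), non-mitochondrial CPM or 10 CPM added. Connecting tubule and principal cells held 41.5 CPM in sham and 159 CPM at day 2, a log2 ratio of 1.91 (1.15 to 2.77), then 80.4 and 103 CPM. Intercalated cells had the least, at 6.13, 2.97, 7.66 and 20.8 CPM, and the first 3 values fall within or under the 4.26 to 11.8 CPM of phagocytes. The highest value, 340.0 CPM, was in the thin limb cells of day 2.

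Cd44, the surface receptor for hyaluronan and osteopontin, was almost absent from sham tubule cells and low in all others. Sham held 5 UMIs, all in proximal cells, or 0.443 CPM over all tubule cells, and day 2, day 7 and reversed held 9.65, 21.6 and 8.35 CPM. Mononuclear phagocytes held 86.7 to 144 CPM of Cd44, so the level that leukocyte RNA alone would give in tubule cells was estimated from other leukocyte transcripts counted in those same cells (Tyrobp, Fcer1g, Lyz2, C1qa, C1qb, C1qc, Laptm5, Ptprc, Coro1a and Cd52). That estimate came to 37.9%, 39.9% and 42.6% of the observed Cd44 over all tubule cells at day 2, at day 7 and after reversal, but to 81.7%, 61.2% and 95.6% in proximal cells.

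By segment, proximal tubule Cd44 stood at 0.522, 4.76, 15.3 and 3.96 CPM, and the reversed value of 3.96 CPM is close to the 3.79 CPM estimated from leukocyte RNA. The thick ascending limb went from 0 UMIs in sham to 16.9 CPM at day 2, at least 3.68-fold higher with 3 counts as the floor (the lower end of the counting interval was 2.85), and held 14.0 and 11.1 CPM afterwards; the leukocyte estimate was 20.8%, 59.9% and 29.6% of these values. The highest Cd44 was in cells without a segment, at 18.6, 48.9 and 35.1 CPM, with an estimated leukocyte part of 19.1%, 18.9% and 9.54%. Connecting tubule and principal cells held 9.85 and 16.1 CPM at day 2 and day 7 and 0 UMIs after reversal, with a leukocyte estimate of 37.8% and 53.3% of the first and second. Intercalated cells held 3.71, 11.1 and 1.89 CPM of Cd44, with an estimate of 94.0%, 70.8% and 169%. Distal convoluted cells held 12.6 CPM at day 7 and 29.5 CPM after reversal (estimate 59.9% and 10.4%), with a log2 ratio of 1.17 whose interval (−0.40 to 2.97) includes 0. Tubule cells with Havcr1 or Krt20 held 38.9 CPM at day 7 against 16.1 CPM in those without. Among cells without a segment at day 7, Havcr1 stood at 428 CPM in the 29 with a Cd44 UMI and 47.2 CPM in the 111 others, whose median depths were 12447 and 5597 UMIs.

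Vim encodes vimentin, the intermediate filament of mesenchymal cells, endothelium and leukocytes, and over all tubule cells its level at day 2 and day 7 was no larger than the leukocyte estimate. In sham it was 0 UMIs in every segment but the proximal tubule, which held 1.98 CPM. Segments with at least 30 cells held 4.79 to 16.9 CPM at day 2 and 31.4 to 37.5 CPM at day 7, while cells without a segment held 45.7 and 62.0 CPM. The leukocyte estimate was 139% of the observed Vim over all tubule cells at day 2 and 106% at day 7. Phagocytes held 438 to 1023 CPM of Vim and endothelium 362 to 1827 CPM. The call of Vim as past 2-fold higher at day 2 does not hold once the estimate is subtracted. The day 2 level is then cut to 0, so the resulting log2 ratio of −0.53 is not a measured decrease.

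After reversal Vim stood higher over all tubule cells, at 86.8 CPM, where the leukocyte estimate was 21.0% of the observed. The level was uneven across cells: cells without a segment held 718 CPM against 18.1 to 24.2 CPM in the proximal tubule, thick ascending limb, connecting tubule and principal cells, and intercalated cells, and 104 CPM in 68 distal convoluted cells. The leukocyte estimate was 79.9%, 80.7%, 90.4% and 78.5% of the observed Vim in those 4 segments, 15.0% in distal convoluted cells and 2.39% in cells without a segment. In the reversed library 56 cells carried UMIs of both Wt1 and Ncam1, genes of the embryonic nephron and of podocytes and nerve, and held 1843 CPM of Vim. Cells assigned as podocytes, stroma and mural cells, endothelium or leukocytes were left out of the 56, and most of the 56 were not assigned as tubule cells. Leaving out cells with both UMIs, a choice made after seeing the data, kept 1648 of 1674 reversed tubule cells. The level over all tubule cells was then 26.5 CPM and that of cells without a segment 64.5 CPM. The log2 ratio of reversed to day 7 turned from 1.13 to −0.52. The same 56 cells held 456 CPM of Sox4, 291 of Pax8, 287 of Cd24a, 66.4 of Cd44, 56.5 of Sox9, 55.1 of Pax2 and 19.8 of Prom1. For Sox9, Sox4, Pax2, Pax8, Cd24a and Prom1 over all reversed tubule cells, leaving them out gave 11.3, 135, 37.5, 62.5, 292 and 94.5 CPM.

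**Figure D4:**
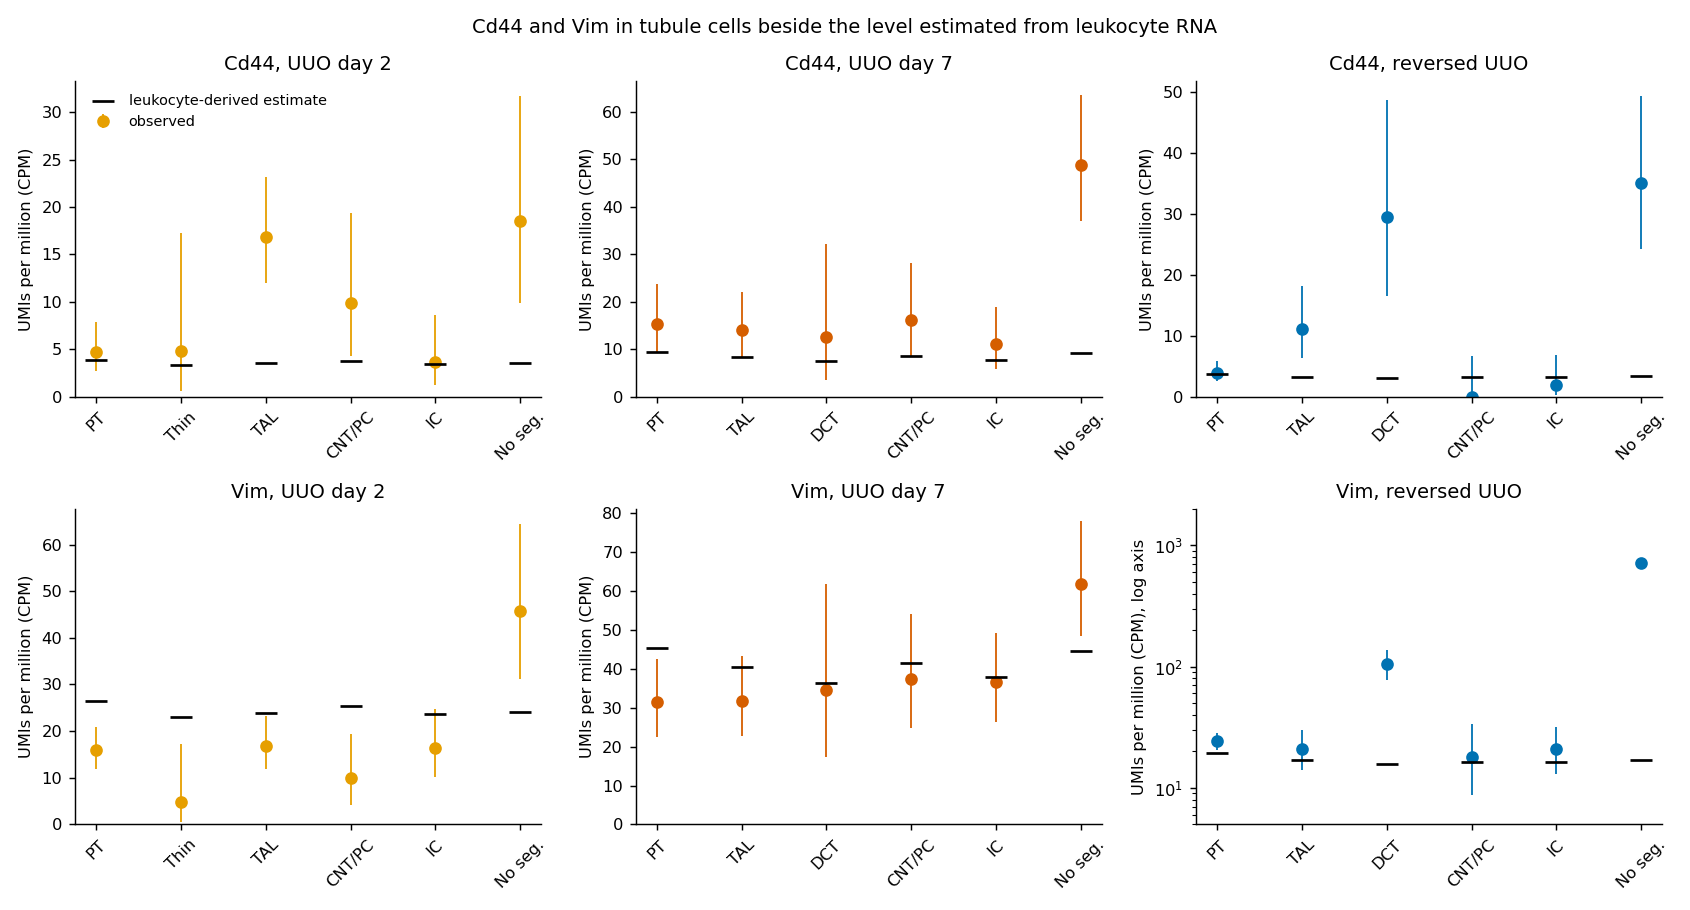
Observed Cd44 (upper panels) and Vim (lower panels) in CPM by tubule segment in the 3 libraries after sham, as points with exact 95% Poisson intervals, beside the level estimated from leukocyte RNA as black dashes; the Vim panel of the reversed library has a log axis. At day 2 the estimate for Vim in the thick ascending limb, 23.8 CPM, lies above the observed 16.9 CPM, while for reversed cells without a segment it is 17.1 CPM against 718 CPM.

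Across the 24 combinations of segment and library with at least 30 cells, Sox4 and Cd24a gave a Pearson correlation of log2 levels of 0.84, Cd44 and Vim of 0.82 and Pax2 and Pax8 of 0.73. The lowest was 0.07, between Sox9 and Pax2. These points share libraries, depth and free RNA, and they are given as a description. Of 9645 genes considered, those with the most similar pattern were Cmtm3, Fam46a and 2810474O19Rik for Sox9 (0.77 to 0.74) and Rsrc2, Ktn1 and Set for Sox4 (each 0.93). They were Tmem50a, Ehf and Fos for Pax2 (0.91 to 0.89) and Tns3, Cryab and Amotl2 for Pax8 (0.93 to 0.92). For the surface proteins they were Irf2bpl, Sft2d2 and Crip2 for Cd24a (0.92 to 0.91), Fermt1, Wtip and Ybx1 for Prom1 (0.83 to 0.79) and Ccl7, Il1rn and Glipr2 for Cd44 (0.92 to 0.84), and for Vim Dpysl3, Bgn and Ccl7 (0.87 to 0.86). Ccl7 and Il1rn are a chemokine and an interleukin receptor antagonist that macrophages make in quantity.

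Cells with a UMI of one member were compared with the rest of their library. After reversal, the 72 tubule cells with a Sox9 UMI held 443 CPM of Sox4 against 122 CPM in the 1602 others, 637 against 261 CPM of Cd24a and 442 against 56.7 CPM of Vim, at median depths of 9997.5 and 5076.5 UMIs. These sets differ in their segments: 20.8% of the cells with a Sox9 UMI and 68.2% of the others were proximal, the segment lowest in Sox4 and Cd24a, and 26.4% against 5.62% were cells without a segment. The part of depth and of segment in the differences was not tested. The same cells held 189.8 CPM of Ncam1 against 32.6 CPM and 323 against 1697 CPM of Slc34a1. At day 2 the 111 Sox9-positive tubule cells held 787 CPM of Cd24a against 832 CPM and 88.8 CPM of Prom1 against 95.015 CPM, with overlapping intervals. The 68 Cd44-positive tubule cells of the reversed library held 757 CPM of Vim against 40.1 CPM and 67.5 CPM of Wt1 against 5.50 CPM; 30.9% of them and 5.48% of the others were cells without a segment.

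Related genes were counted over all tubule cells from lists that were chosen with earlier results of these data known. Of 18 other progenitor or repair markers with enough UMIs, 14 were past 2-fold higher at day 2 and none lower, with a median log2 ratio of 2.24 against 0.51 for all genes, of which 21.0% were past 2-fold higher and 4.11% lower. Within segments 10 of 14 were higher in the proximal tubule (median 1.89 against 0.28 for all genes, 9.32% of which were higher) and 9 of 13 in the thick ascending limb (1.68 against 0.10, 8.18%), where Ccnd1 was lower. Clu, the secreted chaperone clusterin, held 56.7, 5548, 4294 and 1150.4 CPM in sham, day 2, day 7 and reversed. Dcdc2a, a doublecortin-domain protein, held 4.34, 76.5, 177 and 93.5 CPM. After reversal 14 of 19 were past 2-fold above sham and none below, against 21.6% of all genes higher. Ncam1 differed in its course, with 3.63, 18.1, 17.8 and 44.9 CPM and its highest value in the reversed library that held the 56 Wt1 and Ncam1 cells.

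Among 19 other nephron and epithelial transcription factors, 9 were past 2-fold higher at day 2 (21.0% of all genes) and 2 were lower (4.11%), with a median log2 ratio of 0.80 against 0.51. Klf4 held 2.21, 15.8, 47.8 and 25.9 CPM and Klf6 24.0, 143, 226 and 136 CPM; both are zinc-finger factors of the immediate response to stress. Sox11, a close relative of Sox4, held 0.266, 1.91, 9.98 and 4.77 CPM and Wt1 0.797, 1.68, 0.654 and 9.55 CPM. Within proximal tubule cells 3 of 14 were past 2-fold higher at day 2 (Klf4, Klf6 and Myc), against 9.32% of all genes there, and none was lower. In the thick ascending limb 2 of 12 passed higher (Irx3 and Klf6), against 8.18%, and 1 lower (Sox6), against 4.73%.

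Notch signalling, which patterns proximal and distal fates in the developing nephron, was represented by 10 genes with enough UMIs, of which 5 were past 2-fold higher at day 2, against 21.0% of all genes, and none lower, with a median log2 ratio of 1.09 against 0.51. The target Hes1 held 70.7, 206, 225 and 152 CPM, the receptor Notch1 2.66, 9.31, 23.4 and 13.9 CPM, the ligand Dll4 0.974, 2.69, 6.54 and 4.77 CPM and the modifier Lfng 0.531, 3.59, 11.1 and 8.35 CPM. In proximal tubule cells Hes1 alone of 5 passed at day 2 (9.32% of all genes higher), and in the thick ascending limb none of 4 (8.18%). Of 6 Wnt and Lgr genes with enough UMIs, 3 passed higher at day 2 (Wnt4, Wnt7b and Rnf43), against 21.0% of all genes, with a median log2 ratio of 0.95 against 0.51. Within segments none of 3 passed in the proximal tubule (median −0.36 against 0.28) and 1 of 4, Wnt7b, in the thick ascending limb (0.03 against 0.10). Wnt4, a ligand of nephron induction, held 1.59, 7.51, 21.4 and 14.0 CPM. Wnt7b, which the ureteric lineage makes, held 2.30, 11.2, 12.1 and 6.43 CPM. Wnt9b held 0.354, 2.58, 1.96 and 3.86 CPM, and Axin2, a transcript that canonical Wnt signalling induces, held 0.0885, 0.336, 1.15 and 4.50 CPM from 1, 3, 7 and 49 UMIs. Axin2 was past 2-fold higher after reversal than at day 7 and in sham, while day 2 against sham and day 7 against day 2 had under 30 UMIs and were not assessed.

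Of 10 ligands and partners of Cd44 with enough UMIs, 3 were past 2-fold higher at day 2 (Spp1, Cd74 and Msn), against 21.0% of all genes, with a median log2 ratio of 0.57 against 0.51. Within segments 4 of 10 were higher in the proximal tubule (those 3 and Hyal1; median 0.47 against 0.28, with 9.32% of all genes higher) and 3 of 7 in the thick ascending limb (0.71 against 0.10, 8.18%). Spp1, the ligand osteopontin, held 1124, 47959, 29503 and 6284 CPM. Msn, a membrane-to-actin linker that binds the Cd44 tail, held 42.0, 138, 153 and 105 CPM, and its relative Ezr held 147, 292, 343 and 231 CPM. Cd74, the invariant chain of class II antigen presentation, held 129, 430.1, 1914 and 832 CPM, a course in the same order as the leukocyte transcript Lyz2 in these cells; the part of leukocyte RNA in it was not tested.

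Of 13 intermediate filament and mesenchymal genes with enough UMIs, 8 were past 2-fold higher at day 2 and none lower, against 21.0% of all genes higher, with a median log2 ratio of 1.76 against 0.51. Within segments 6 of 9 were higher in the proximal tubule (1.16 against 0.28, 9.32% of all genes) and 4 of 5 in the thick ascending limb (2.44 against 0.10, 8.18%). Over all tubule cells, reversed against sham, 13 of 14 were higher, against 21.6%. Among those higher in both comparisons were epithelial keratins: Krt19 held 0.531, 23.6, 72.1 and 34.8 CPM and Krt18 13.9, 187, 274 and 101 CPM, although Krt18 and Krt8 were also among the markers that admitted the cells without a segment. Fn1, the matrix protein fibronectin, held 0.443, 8.75, 18.3 and 22.6 CPM, so that its log2 ratio of reversed to sham, 4.03, lay between the 2.77 of Krt18 and the 4.55 of Krt19, and Nes, the filament nestin of podocytes and progenitors, 1.42, 2.24, 6.05 and 15.8 CPM. After reversal against day 7, Krt8, Krt18, Krt19, Krt7 and S100a4 were past 2-fold lower, against 4.80% of all genes, and Nes and Des were past 2-fold higher, against 4.17%. Nes is among the leading genes of the cells without a segment, which these sums include.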

How the data were processed

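The deposited values are raw UMI counts per gene and cell from droplet 3′ libraries, made by the authors with Cell Ranger and STAR on GRCm38 (mm10), per the submitters' processing notes. The plate-based sample was not used because its wells are not mapped to time points. Cells with at least 200 genes, at most 50% mitochondrial UMIs and no Scrublet call (scanpy 1.11.5, 0.8% expected per 1000 cells) were kept, 3746, 2159, 4287 and 3140 per library with 12366170 to 28601653 UMIs. Segments were assigned when one marker score exceeded the next by 1.25 times with at least 2 markers seen. UMIs were summed per segment and library (Python 3.11.15, numpy 2.4.6, pandas 2.3.3) and given as CPM with exact Poisson intervals. Ratios have exact conditional binomial intervals and shares exact Clopper-Pearson ones, all at 95% (scipy 1.17.1). A call needs a ratio of 2 on CPM with 1 added and 30 UMIs, in classes of at least 30 cells. No p-value is given, since each group is 1 library. For shares at equal depth cells were thinned to 1000 UMIs. edgeR 4.0.16 TMM and DESeq2 1.42.0 size factors were alternatives. The calls were tested on simulated data that held counting error only. That test does not cover the spread between mice, the mix of segments or free RNA. Genes named are the 8, the 3 most correlated genes of each over segment and library combinations (log2 of CPM with 10 added, at least 200 UMIs), and up to 4 genes per related list with the largest ratio; Myc, Rnf43, Krt7, Krt8, S100a4 and Des were named after their values were seen, and some genes of the lists are not reported here. The members and lists were chosen with earlier results of these data known.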

Additional observations from a re-analysis of the deposited data

Results flagged for a closer look

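Several ratios had counting intervals that excluded 0 in opposite directions in different segments under the same comparison; with 1 library per group the difference between segments was not tested. From day 7 to reversed, the log2 ratio of Sox9 was −3.52 in the proximal tubule and −1.62 in distal convoluted cells but 1.31 in connecting tubule and principal cells. The last call was lost under a stricter assignment of segments, where Sox9 stood at 0.89 with overlapping intervals, and the distal convoluted interval included 0 with no doublet removal. In that comparison Pax2 stood at −0.73 in the proximal tubule against 0.77 in connecting tubule and principal cells and 0.78 in intercalated cells. The proximal interval of Pax2 included 0 under the stricter assignment (−0.29, with 15.3 CPM at day 7 and 12.3 CPM after reversal), the 20% mitochondrial limit, non-mitochondrial CPM, TMM and DESeq2 size factors, so opposite directions were not shown there, and the intercalated one included 0 under the stricter assignment. Pax8 stood at −1.01 in the proximal tubule against 0.83 in the thick ascending limb and 0.53 in intercalated cells; the intervals included 0 under 1, 0 and 6 of 11 alternatives. Vim stood at 1.56 in distal convoluted cells against −0.78 in intercalated cells, where the leukocyte estimate was 105% of the observed distal convoluted Vim at day 7 and 15.0% after reversal, and 104% and 78.5% of the intercalated one. The distal convoluted interval of Vim included 0 with no mitochondrial limit and without the Wt1 and Ncam1 cells, and the intercalated one under 4 of 11 alternatives. At day 7 the leukocyte estimate exceeded the observed Vim in both segments, so subtracting it cut both levels to 0. The intercalated ratio of 2.52 that follows gives no direction, and opposite directions were not shown in that setting. From sham to day 2, Pax8 stood at 1.13 in the proximal tubule and 0.71 in the thick ascending limb against −0.92 in connecting tubule and principal cells, with intervals that included 0 under 1 of 11, 3 of 10 and 0 of 10 alternatives. Prom1 stood at −0.26 in the proximal tubule against 0.40 in the thick ascending limb and 1.91 in connecting tubule and principal cells, with intervals that included 0 under 3 of 11, 3 of 10 and 0 of 10.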

How the results depend on the processing

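No paired analysis was possible because each group has 1 library, and for the same reason no replicate could be left out. Of 82 called ratios, the sign was kept in 1002 and the call in 823 of 1019 pairs of ratio and setting. A larger pseudocount or a common scaling could hardly turn a called sign by its construction, so the kept signs there say nothing about stability. Over all tubule cells TMM shifts every log2 ratio by −0.59, −0.25, 0.24 and −0.60 in the 4 comparisons in the order given. Calls were lost in 26 of 56 pairs under the 20% mitochondrial limit and in 23, 20 and 19 of 82 under the pseudocount of 10 CPM, DESeq2 size factors and TMM. They were also lost in 19 of 77 under the stricter assignment and in 12 and 11 of 22 with equal segments and equal named segments. Equal segments include the cells without a segment as a class unless named segments are stated; the latter, and leaving those cells out, were added after seeing the data. The count of 7 genes at day 2 was 4 with equal segments or equal named segments. The count of 3 from day 2 to day 7 was 1 under the 20% mitochondrial limit, the looser assignment, non-mitochondrial CPM, the pseudocount of 10 CPM or equal named segments, and 0 under TMM, DESeq2 size factors or equal segments. The count of 5 from day 7 to reversed was 1 under the 20% limit or equal segments 2 under the larger pseudocount and 0 with equal named segments, and that of 7 for reversed against sham was 4 under the larger pseudocount. The sign turned in 13 pairs and the ratio became 0 in 4. Under the 20% limit and equal segments, all-tubule Pax2 at day 2 became −0.49 and −0.56, Pax8 at day 2 −0.25 and −0.60, and Pax8 reversed against sham −0.0021 and −0.17. With the leukocyte estimate subtracted, Vim at day 2 became −0.53 over all tubule cells, −0.79 in the proximal tubule and 0 in the thick ascending limb. In each of these the estimate exceeded the observed day 2 Vim, so its level was cut to 0 and the value is fixed by that cut. In the same setting Vim from day 2 to day 7 became 0 over all tubule cells, in connecting tubule and principal cells and in intercalated cells, with both levels cut to 0. Proximal Cd44 reversed against sham became −0.18 in that setting. Without the Wt1 and Ncam1 cells, added after seeing the data, Vim from day 7 to reversed became −0.52, and without the cells of no segment −0.31. Under the stricter assignment proximal Sox4 became −1.30 from day 2 to day 7 and 1.06 from day 7 to reversed. Where no value above bears on it, the cause was not tested. The 20% limit leaves 307 sham tubule cells. Against the shares of cells with a UMI at equal depth, 58 of 64 values without thinning or at a lower depth moved. A share falls with fewer UMIs by its construction, so this says little about stability. A level of 0 counts in a class allows up to 3 counts at this depth.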
